A study of Caenorhabditis elegans with 18 samples.

Results

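The transcriptional response of wild-type *Caenorhabditis elegans* to 24 h at 2 °C was described across all genes by setting the 6 WT cold libraries against the 6 WT control libraries, which make up 12 of the 18 libraries of the study. All 12 are RNA of whole N2 worms, the standard laboratory wild type, with no allele or transgene. WT cold worms were raised from the egg for 5 days at 15 °C to day 1 of adulthood and then held at 2 °C for 24 h. WT control worms were raised in the same way and collected at day 1, so the WT cold worms were also 24 h older, and no library here is of worms of that age kept at 15 °C. Cold and age therefore cannot be told apart. Experiment 1 supplied replicates 1 to 3 of each group and experiment 2 replicates 4 to 6, with n = 3 per group in each, and the experiment was a term in the model. Members were chosen by these labels only, with no measured value. The other 6 libraries carry the ire-1(ok799) allele and are not used here. The series text calls the replicates biological. The sources do not say how many worms went into a library.

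Worms do not regulate their body temperature, so a shift to near-freezing slows growth and metabolism in every tissue at once. In *C. elegans*, cold tolerance is set in part by sensory neurons and by signals to the intestine, and the membranes are remodelled by changes in fatty acid desaturation. The bZIP factor ZIP-10 is known from worms as a cold-induced regulator whose activity promotes death after a severe cold shock, and ISY-1 is known as its repressor. The comparison here leaves the fat and yolk genes aside and follows transcription factors, transporters and signalling genes.

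Reads were counted per gene, with 24417696 to 28605468 counts per library in experiment 1 and 10449794 to 16814732 in experiment 2. Levels are given as CPM, a gene's counts scaled to a common TMM-normalised library size, so that 1 CPM stood for 10.4 to 28.6 reads in WT cold and 12.4 to 25.9 reads in WT control. CPM is not corrected for gene length and is compared between libraries only. Some libraries stood apart. Together, 58 listed sperm genes reached 560.7 CPM in WT cold 2 and 4.22 to 135 CPM in the other WT cold libraries. They reached 2412 CPM in WT control 1 and 11.5 to 209 CPM in the other WT control libraries. The summed level of 15 intestine markers spanned 1091 to 4275 CPM in WT cold (median 1800) and 2449 to 7834 CPM in WT control (median 6318). WT cold 5 (4275 CPM), WT control 3 (3005 CPM) and WT control 6 (2449 CPM) made the groups overlap. In bulk RNA, fewer cells of a type and less RNA per cell cannot be told apart.

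**Figure D1:**
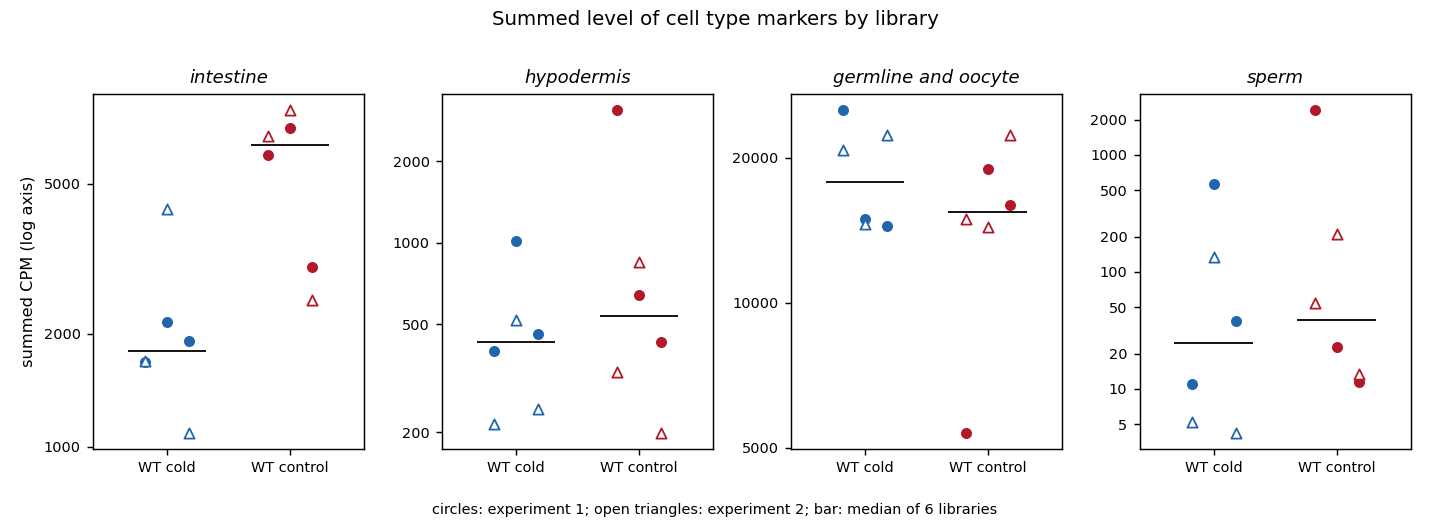
Summed CPM (log axes) of the intestine, hypodermis, germline and oocyte, and sperm marker lists in each of the 6 WT cold and 6 WT control libraries, with the median as a bar. The intestine sum was 1091 to 4275 CPM in WT cold and 2449 to 7834 CPM in WT control, and WT control 1 (2412 CPM) and WT cold 2 (560.7 CPM) stood above all others in the sperm panel.

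Of 11766 tested genes, 1545 (13.1%) changed at an adjusted p below 0.05 in edgeR's quasi-likelihood test with Benjamini-Hochberg adjustment. Many more fell than rose, with 318 rises (2.7%) and 1227 falls (10.4%). The rises had a median log2 fold change of 0.73 and a median control level of 40.8 CPM, and 132 of them were at least 2-fold. The falls had a median of -1.53 and a median control level of 7.63 CPM, and 1062 of them were at least 2-fold. Low genes carried most of the falls. Among genes with a mean of 1 to 3 CPM 18.9% fell and 1.93% rose, whereas among those at 100 CPM or more 3.3% fell and 5.15% rose. The median log2 fold change over all tested genes was -0.07, and it was -0.18 with upper-quartile scaling and 0.02 with RLE scaling. With DESeq2 the split was 999 rises and 1612 falls.

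The size of the counts depended on single libraries. Rises numbered 163 without WT cold 1, 203 without WT cold 2, 180 without WT cold 3, 166 without WT cold 4, 478 without WT cold 5 and 184 without WT cold 6. They numbered 175 without WT control 4, 175 without WT control 5, 630 without WT control 3 and 808 without WT control 6. Falls numbered 704, 807, 726 and 782 without WT cold 1, 3, 4 and 6, and 801, 711 and 673 without WT control 1, 4 and 5. With both WT cold 5 and WT control 6 left out, an alternative chosen after seeing the data, 1007 genes rose and 2388 fell. Of the genes called with all 12 libraries, 1491 were called in that fit, all in the same direction. Without WT cold 2 and WT control 1, the libraries with the most sperm RNA, 296 genes rose and 924 fell, and 1075 called genes were shared.

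The largest changes were taken from called genes with a higher group mean of 10 CPM or more and groups apart within each experiment. Among them, the rises were mostly genes known by sequence name alone. F19B10.13 stood at 18.2 to 61.5 CPM in WT cold (median 23.8) and 0.244 to 1.07 CPM in WT control (median 0.551), a log2 fold change of 5.53 ± 0.46 (adjusted p = 9.29e-05, edgeR). Y58A7A.4 stood at 6.45 to 27 CPM in WT cold (median 12.1) and 0.214 to 0.498 CPM in WT control (median 0.266), a log2 fold change of 5.49 ± 0.43 (adjusted p = 9.29e-05). For both genes the lowest cold library lay above the highest control library, a separation partly built in by the choice. The other 8 of the 10 largest rises were C49G7.7 (5.12), kreg-1 (4.73), F33H12.7 (4.32), T19D12.5 (4.00), Y58A7A.5 (3.76), srr-6 (3.71), K09D9.1 (3.70) and F08G2.5 (3.60), given as log2 fold changes. T19D12.5 shares exon bases with T19D12.4 on the opposite strand, and the strand setting of the counting is not stated here. The falls included more genes of known function. The gene sams-1, an S-adenosylmethionine synthetase, stood at 8.87 to 74.7 CPM in WT cold (median 22.7) and 72.7 to 899 CPM in WT control (median 140.2), a log2 fold change of -3.09 ± 0.51 (adjusted p = 0.00256). For asp-13, which encodes an aspartyl protease, the libraries stood at 4.81 to 32.6 CPM in WT cold (median 8.4) and 102 to 192 CPM in WT control (median 159.6), a log2 fold change of -3.47 ± 0.48 (adjusted p = 0.00105). The groups did not overlap for asp-13, and they overlapped slightly for sams-1, whose lowest control library (72.7 CPM) lay below the highest cold library (74.7 CPM). The other large falls were F22F7.8 (-4.50), the amine methyltransferase gene anmt-3 (-4.19), K06A4.7 (-3.26), the glucuronosyltransferase gene ugt-63 (-3.22), nhr-114 (-3.16), dod-3 (-3.01), F25E5.8 (-2.94) and K02C4.5 (-2.86). None of these 20 calls was lost when any 1 library was left out, which the choice of called and separated genes partly builds in. The strand setting bears on other genes too, since 32 of the 141 tested genes named here share exon bases with a protein-coding gene on the opposite strand and 5 with one on the same strand, and the counts of such genes are uncertain. Those called in each of the 12 fits that left out 1 library include zip-10, zip-3, nhr-6, sbp-1, egl-43, haf-4, ent-7, hrg-7, kqt-3 and ptr-8 on opposite strands and atf-4, slc-17.4 and npr-30 on the same strand.

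A larger share of transcription factors than of all tested genes fell, and nuclear hormone receptors held 48 of the 71 falls. Of 625 listed factors 380 were tested, and 11 rose (2.89%) and 71 fell (18.7%), beside 2.7% and 10.4% over all tested genes. Their median log2 fold change was -0.19. Among all tested genes the share of falls depended on level, at 18.9% for a mean of 1 to 3 CPM and 3.3% at 100 CPM or more. None of the 3 classes was set against genes of like level, so the part of level in their shares was not tested. The share that fell differed widely between families, at 30.6% in nuclear hormone receptors, 33.3% in bHLH factors, 16.7% in bZIP factors, 10.9% in homeobox factors, 10.8% in zinc finger factors and 0% in Mediator and coactivator genes. Nuclear hormone receptors made up 157 of the 380 tested factors. The bHLH, bZIP and GATA lists held 15, 24 and 6 tested genes, and no other family passed 10.9%, beside 10.4% over all tested genes. Falls of factors numbered 47 without WT control 1, 47 without WT control 4 and 45 without WT control 5, beside 801, 711 and 673 over all genes. Without WT cold 5 and WT control 6 together, 31.3% of the tested factors fell, beside 19.6% of all genes in that fit.

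**Figure D2:**
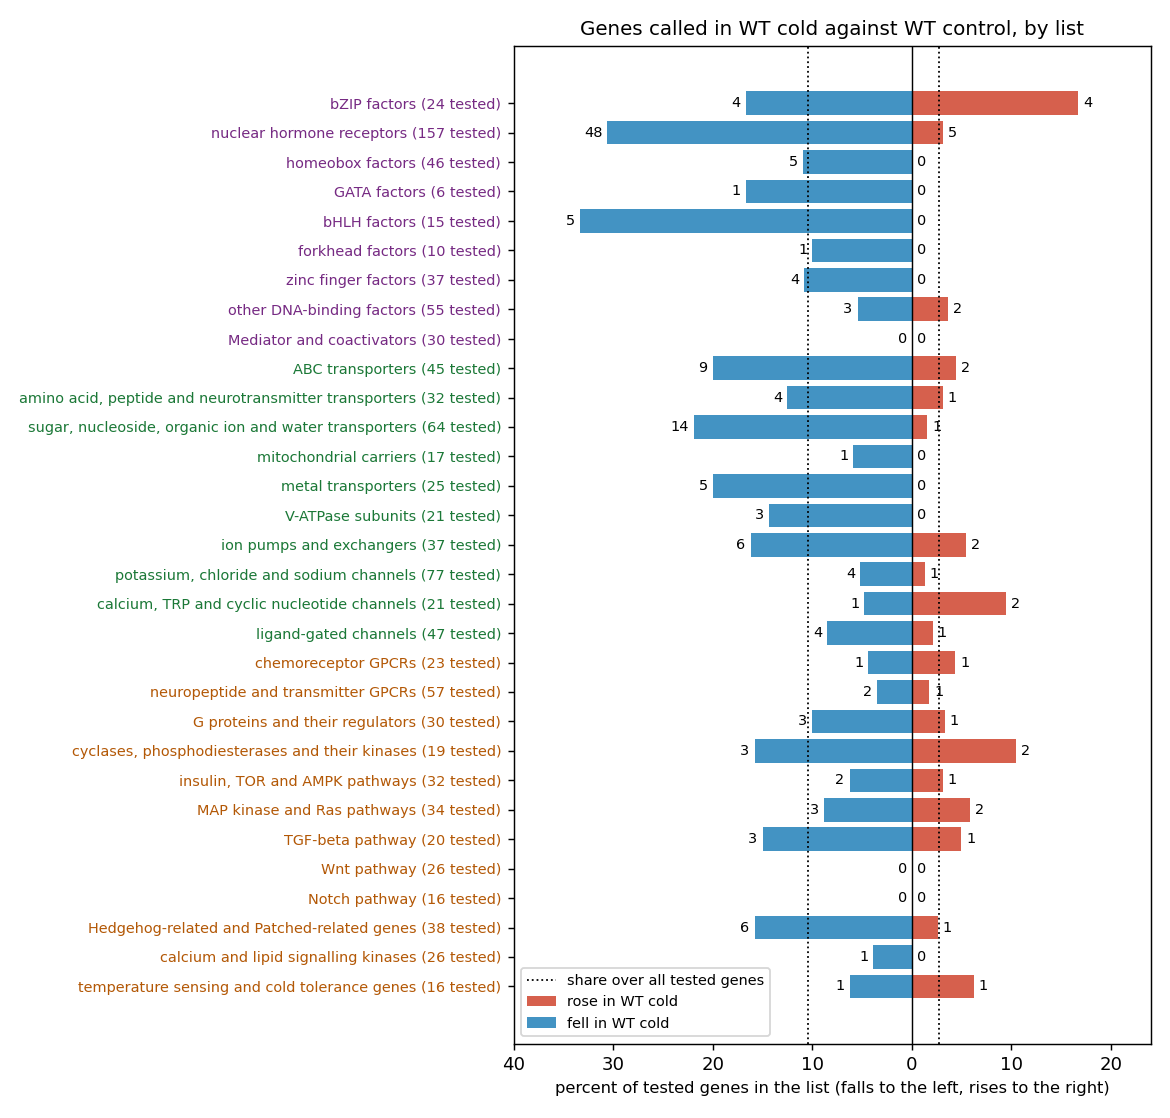
Share of the tested genes of each list that rose (right of 0) or fell (left of 0) in WT cold against WT control, with the number called beside each bar. Dotted lines mark the shares over all tested genes, 2.7% for rises and 10.4% for falls, and the longest bars for falls are those of bHLH factors (5 of 15) and nuclear hormone receptors (48 of 157).

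The bZIP factors, which bind DNA as dimers through a leucine zipper and include many stress regulators, were the family with rises and falls in equal number. Of 24 tested, 4 rose and 4 fell (16.7% each, beside 2.7% and 10.4% of all tested genes), with a median log2 fold change of 0.11. The largest rise was zip-10, at 20.3 to 75.7 CPM in WT cold (median 27.2) and 1.81 to 8.77 CPM in WT control (median 2.27). The groups did not overlap, WT cold 5 was the highest of all libraries and WT control 1 was the highest control. The log2 fold change of zip-10 was 3.34 ± 0.50 (adjusted p = 0.00153), 2.74 in experiment 1 and 4.13 in experiment 2. Part of zip-10 overlaps exons of skp-1 on the opposite strand, and skp-1 itself had a log2 fold change of 0.28 (adjusted p = 0.167). Another bZIP gene, zip-5, stood at 9.81 to 32.8 CPM in WT cold (median 13.4) and 1.07 to 7.92 CPM in WT control (median 2.45), a log2 fold change of 2.25 ± 0.48 (adjusted p = 0.00987). The C/EBP-type factor gene cebp-1, known from worms for its part in axon regeneration, stood at 29.6 to 89.2 CPM in WT cold (median 45.9) and 4.41 to 23.7 CPM in WT control (median 19.5), a log2 fold change of 1.69 ± 0.43 (adjusted p = 0.023). Every cold library lay above every control library for both genes. The fourth rise in the family was jun-1, an AP-1 factor (1.05).

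The bZIP falls included regulators of other stress programmes. The gene atf-4, whose product resembles mammalian ATF4 of the integrated stress response, stood at 3.93 to 9.88 CPM in WT cold (median 5.03) and 15.2 to 81.6 CPM in WT control (median 24.8), a log2 fold change of -2.45 ± 0.37 (adjusted p = 0.00159). The gene zip-3, a known repressor of the mitochondrial unfolded protein response, stood at 8.48 to 12.5 CPM in WT cold (median 10.1) and 26.8 to 98.6 CPM in WT control (median 35.5), a log2 fold change of -2.09 ± 0.28 (adjusted p = 0.000911). The highest cold library lay below the lowest control library for both, and WT control 1 was far above the other controls for both. The gene zip-12 had -2.18 (adjusted p = 0.018), a call lost without WT cold 4 (adjusted p up to 0.0516). The general stress factors were not called. Log2 fold changes were 0.04 ± 0.14 for daf-16 (adjusted p = 0.871), 0.38 ± 0.20 for hsf-1 (adjusted p = 0.202), 0.43 ± 0.18 for skn-1 (adjusted p = 0.117), 0.52 ± 0.45 for pqm-1 (adjusted p = 0.431) and -0.54 ± 0.19 for hif-1 (adjusted p = 0.0815). These genes encode the FOXO factor of insulin signalling, the heat shock factor, the Nrf-like oxidative stress factor, a zinc finger factor of the insulin pathway and the hypoxia-inducible factor. Among these, hif-1 was called, as lower in WT cold, without WT cold 5, WT control 3 or WT control 6. The CREB gene crh-1 had -0.35 ± 0.13 (adjusted p = 0.0929) and the foregut forkhead gene pha-4 0.51 ± 0.37 (adjusted p = 0.353). A p that misses the threshold does not show that these genes were equal in both groups, and mRNA levels do not report their activity.

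**Figure D3:**
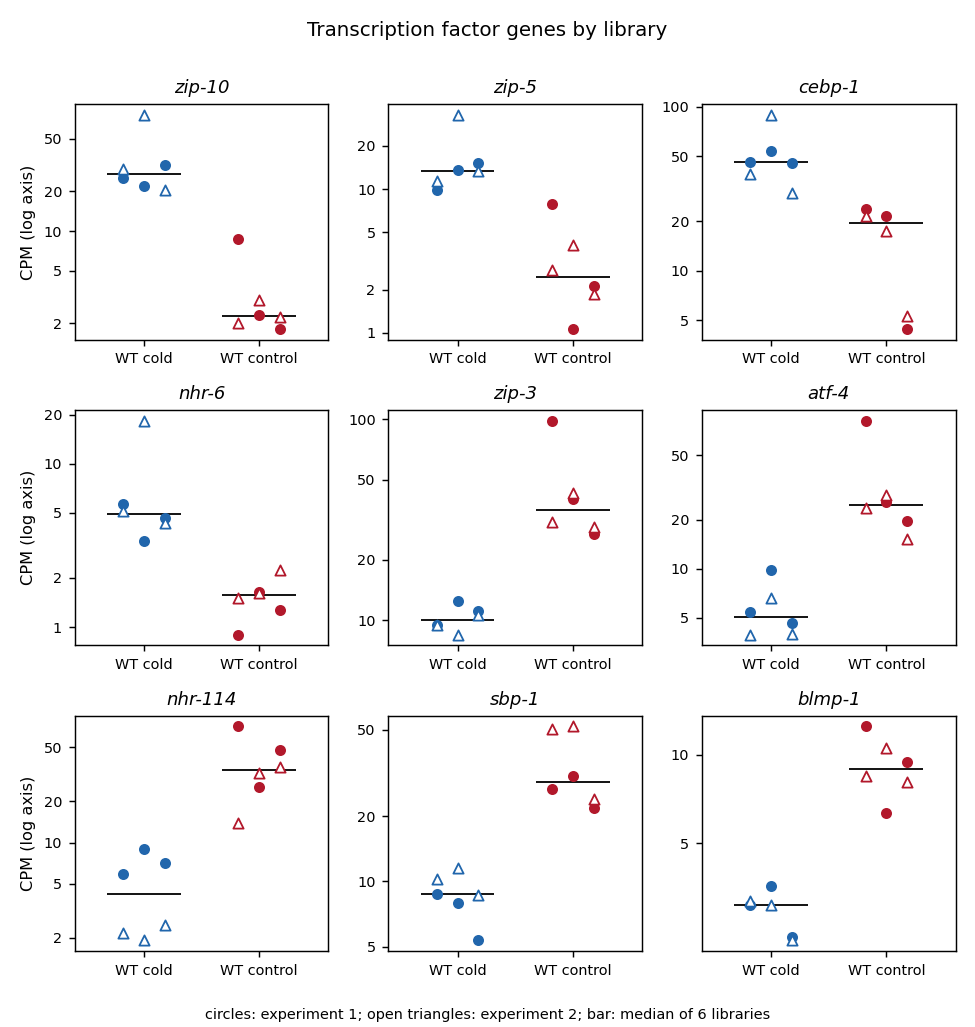
CPM (log axes) of 9 transcription factor genes in each WT cold and WT control library, circles for experiment 1, open triangles for experiment 2 and bars for medians. For zip-10, zip-5, cebp-1 and nhr-6 every cold library lies above every control library (zip-10 at 20.3 to 75.7 CPM in WT cold and 1.81 to 8.77 CPM in WT control), and for the other 5 genes every cold library lies below (nhr-114 at 1.91 to 8.89 CPM in WT cold and 13.9 to 71.2 CPM in WT control).

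Nuclear hormone receptors are a greatly expanded family in *C. elegans*, and many members act in the intestine as regulators of metabolism. Of 157 tested, 48 fell and 5 rose, and the median log2 fold change was -0.63. Most of these genes lie on chromosome V, where 36 of 96 tested fell, against 2 of 7 on I, 2 of 8 on II, 2 of 5 on III, 3 of 23 on IV and 3 of 18 on X. Over all tested genes, falls were also more frequent on V (15.7%) and X (15.6%). They made up 5.66% on I, 11.2% on II, 5.82% on III and 9.21% on IV. The receptor gene nhr-114, known from worms for its part in the response to diet and vitamin B12 supply, stood at 1.91 to 8.89 CPM in WT cold (median 4.17) and 13.9 to 71.2 CPM in WT control (median 34.2), a log2 fold change of -3.16 ± 0.33 (adjusted p = 0.000344). The log2 fold change was -2.63 in experiment 1 and -3.60 in experiment 2. The groups were well apart. The receptor gene nhr-16 stood at 0 to 0.111 CPM in WT cold (median 0.0749) and 0.746 to 2.44 CPM in WT control (median 1.29), and nhr-238 at 0.0586 to 0.187 CPM in WT cold (median 0.133) and 0.689 to 2.48 CPM in WT control (median 0.99). Their log2 fold changes were -4.20 ± 0.44 (adjusted p = 0.000345) and -3.14 ± 0.41 (adjusted p = 0.000735), and the cold values rest on few reads, 9 over all 6 libraries for nhr-16. The next smallest p in the family belonged to nhr-68, a known regulator of the propionate shunt (-2.18), the genes beyond the first 3 in each direction having been picked out after their values were seen.

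The receptor genes with a known place in fat or steroid signalling were mixed. The gene nhr-80, which promotes expression of fatty acid desaturases, stood at 1.64 to 5.56 CPM in WT cold (median 2.5) and 4.23 to 12.5 CPM in WT control (median 9.59), a log2 fold change of -1.63 ± 0.38 (adjusted p = 0.0144), and its groups overlapped. The gene nhr-49, a regulator of fat use, stood at 87.9 to 108 CPM in WT cold (median 101) and 69.6 to 108 CPM in WT control (median 83.4) and was not called (0.23 ± 0.11, adjusted p = 0.164). The dafachronic acid receptor gene daf-12 had -1.16 (adjusted p = 0.0434), a call lost in every fit that left out 1 library except those without WT cold 2, WT cold 5, WT control 3 or WT control 6 (adjusted p up to 0.108).

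The 5 receptor rises were of genes at low levels. The gene nhr-247 was counted 228 times over the 6 WT cold libraries and 0 times over the 6 WT control libraries, at 1.22 to 5.65 CPM in WT cold (median 1.5). Set against a floor of 3 counts over the control group, it was at least 71.8-fold higher in WT cold (adjusted p = 0.00106, edgeR). The gene nhr-6, the worm member of the NR4A group known for its part in the spermatheca, stood at 3.36 to 18.4 CPM in WT cold (median 4.9) and 0.899 to 2.24 CPM in WT control (median 1.57), a log2 fold change of 2.10 ± 0.38 (adjusted p = 0.00411). The gene nhr-84 stood at 8.91 to 19.3 CPM in WT cold (median 12.7) and 5.33 to 6.97 CPM in WT control (median 5.85), a log2 fold change of 1.11 ± 0.22 (adjusted p = 0.00709). For all 3 genes the groups were separate.

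The bHLH factors fell or were not called. Of 15 tested, 5 fell, none rose and 14 had a log2 fold change below 0, with a median of -0.54. The gene sbp-1, the worm SREBP that drives lipid synthesis genes, stood at 5.35 to 11.5 CPM in WT cold (median 8.73) and 21.9 to 52 CPM in WT control (median 28.6), a log2 fold change of -1.95 ± 0.22 (adjusted p = 0.000416), with no overlap of the groups. The call of mdl-1, a Mad-like factor (-1.49, adjusted p = 0.02), was lost without any one of WT cold 4, WT cold 6, WT control 1, WT control 4 or WT control 5 (adjusted p up to 0.0582). The call of its relative mxl-3 (-2.13, adjusted p = 0.0205), a known repressor of lysosomal lipase genes, was lost without any one of WT cold 4, WT control 1 or WT control 5 (adjusted p up to 0.0728). The worm TFEB gene hlh-30, a regulator of autophagy and lysosome genes, had -1.01 (adjusted p = 0.0233), a call lost without any one of WT cold 3, WT cold 4, WT cold 6, WT control 2, WT control 4 or WT control 5 (adjusted p up to 0.0792).

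Among zinc finger factors 4 of 37 tested fell (10.8%, beside 10.4% of all tested genes) and none rose. The gene blmp-1, the worm Blimp-1 that acts in developmental timing and the epidermis, stood at 2.34 to 3.58 CPM in WT cold (median 3.1) and 6.35 to 12.5 CPM in WT control (median 8.97), a log2 fold change of -1.65 ± 0.23 (adjusted p = 0.000929), and its groups were far apart for their spread. The gene egl-43, the worm Evi1 factor of the gonad and nervous system, had -2.09 ± 0.42 (adjusted p = 0.00729), and ztf-26 had -1.29 ± 0.30 (adjusted p = 0.015). Homeobox factors, which pattern tissues in development, gave 5 falls of 46 tested (10.9%, again near that share) and no rise. The Six-type gene ceh-32 stood at 0.187 to 0.821 CPM in WT cold (median 0.39) and 0.871 to 1.89 CPM in WT control (median 1.49), a log2 fold change of -1.81 ± 0.34 (adjusted p = 0.00546), with no overlap. The ZEB-type neuronal gene zag-1 had -2.35 ± 0.54 (adjusted p = 0.0137) and was tested in 9 of the 12 fits without 1 library, and the Otx-type gene ceh-37 had -1.30 (adjusted p = 0.0195), a call lost without any one of WT cold 6, WT control 4 or WT control 5 (adjusted p up to 0.0551).

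The remaining families held few calls, to be read beside 2.7% rises and 10.4% falls over all tested genes. GATA factors, which specify the gut and the epidermis, gave 1 fall of 6 tested, the gut factor elt-7 (-1.45, adjusted p = 0.0264), a call lost in every fit that left out 1 library except those without WT cold 2, WT cold 5, WT control 3 or WT control 6 (adjusted p up to 0.0785). The main gut factor elt-2 stood at 2.25 to 11.3 CPM in WT cold (median 3.33) and 7.37 to 14.4 CPM in WT control (median 8.41) and was not called (-1.14 ± 0.37, adjusted p = 0.0586), although it was called with DESeq2 and without WT cold 5 or WT control 6 (adjusted p as low as 0.00338 with both left out). As elt-2 is itself an intestine marker, and WT cold 5 and WT control 6 made the marker sums overlap, leaving them out partly builds in its call. Forkhead factors gave 1 fall of 10 tested, the gonad factor fkh-6 (-1.35, adjusted p = 0.0362), a call lost without any one of WT cold 1, WT cold 2, WT cold 3, WT cold 6, WT control 1, WT control 4 or WT control 5 (adjusted p up to 0.0859). Other DNA-binding factors gave 2 rises and 3 falls of 55. The MADF-domain gene madf-10 fell by 2.25 on the log2 scale (adjusted p = 0.00274) and the Smad gene daf-8 rose, as described with its pathway. The call of the STAT gene sta-1 (-1.34, adjusted p = 0.0216) was lost without any one of WT cold 1, WT cold 3, WT cold 4, WT cold 6, WT control 1, WT control 4 or WT control 5 (adjusted p up to 0.0654). The call of the T-box gene tbx-2 (-0.86, adjusted p = 0.0434) was lost in every fit that left out 1 library except those without WT cold 1, WT control 3 or WT control 6 (adjusted p up to 0.14), and that of dmd-7 (0.74, adjusted p = 0.0496) in every fit that left out 1 library except those without WT control 3 (adjusted p up to 0.124). Mediator and coactivator genes, which link factors to RNA polymerase, gave no call among 30 tested and a median of 0.21. Their log2 fold changes lay between -0.32 and 0.62, 7 were above 0 and none below 0 at an unadjusted p under 0.05, and DESeq2 called 2 rises.

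Transporter and channel genes as a class had a median log2 fold change of -0.36, lower than that of all tested genes. Of 565 listed 386 were tested, and 10 rose (2.59%) and 51 fell (13.2%), against 2.7% and 10.4% over all tested genes, so the share of falls was only slightly above the background. Without single libraries the falls numbered 23, 26, 25 and 29 without WT cold 1, 3, 4 and 6, and 29, 26 and 25 without WT control 1, 4 and 5. Falls over all genes dropped in these fits too, from 1227 to between 673 and 807. Whether the slight excess over all genes held in each of these fits was not tested. Rises numbered 5, 5, 6 and 6 without WT cold 1, 2, 4 and 6, and 6, 4, 5 and 17 without WT control 2, 4, 5 and 6. Rises over all genes were 808 without WT control 6 and 163 to 259 in the other fits named. The lists with the highest shares of falls were sugar, nucleoside, organic ion and water transporters (14 of 64), ABC transporters (9 of 45) and metal transporters (5 of 25). The metal list includes heme-responsive genes that are not all transporters.

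Uptake transporters of amino acids and peptides gave 4 falls (12.5%) and 1 rise (3.12%) of 32 tested, beside 10.4% and 2.7% of all tested genes. The intestinal dipeptide transporter gene pept-1 stood at 9.32 to 28.4 CPM in WT cold (median 17.6) and 45.6 to 104.1 CPM in WT control (median 81.2), a log2 fold change of -2.13 ± 0.24 (adjusted p = 0.000414). The SLC36-type amino acid transporter gene slc-36.2 stood at 0.41 to 1.45 CPM in WT cold (median 1.05) and 5.29 to 10.6 CPM in WT control (median 7.95), a log2 fold change of -2.92 ± 0.29 (adjusted p = 0.00027). Both genes had non-overlapping groups. The related slc-36.5 had -1.63 ± 0.38 (adjusted p = 0.0151) and was tested in 9 of the 12 fits without 1 library. The vesicular glutamate transporter gene vglu-2 had 1.11 (adjusted p = 0.0297), a call lost without any one of WT cold 1, WT cold 2 or WT control 4 (adjusted p up to 0.0614). As pept-1 is itself an intestine marker, the 15 intestine markers are the values to set beside it. Of them 9 fell (60%, beside 10.4% of all tested genes), none rose and 14 were below 0, with a median of -1.32. The 9 include pept-1 itself, and elt-7, vha-6 and cpr-1, whose falls are described with their own lists. The share of the intestine in these falls was not tested.

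In the list of sugar, nucleoside, organic ion and water transporters, the 1 rise was slc-17.9, a member of the SLC17 organic anion family. It stood at 4.09 to 9.12 CPM in WT cold (median 7.22) and 0.808 to 2.83 CPM in WT control (median 1.7), a log2 fold change of 2.10 ± 0.31 (adjusted p = 0.00151). The groups did not overlap. Its relative slc-17.4 moved the other way, at 1.46 to 4.98 CPM in WT cold (median 2.69) and 4 to 20.7 CPM in WT control (median 8.83), a log2 fold change of -1.78 ± 0.32 (adjusted p = 0.00427), with slight overlap. In the same family slc-17.3, slc-17.5 and slc-17.6 also fell. The folate transporter family gene folt-2 stood at 36.6 to 105.4 CPM in WT cold (median 84.1) and 96 to 422 CPM in WT control (median 230.4), a log2 fold change of -1.64 ± 0.30 (adjusted p = 0.00435), and the nucleoside transporter gene ent-7 had -1.59 ± 0.30 (adjusted p = 0.00556). The groups of folt-2 overlapped slightly. The median of the list was -0.49.

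ABC transporters, which use ATP to move lipids, peptides and foreign compounds, gave 9 falls (20%) and 2 rises (4.44%) of 45 tested. The shares over all tested genes were 10.4% and 2.7%. The peroxisomal transporter gene pmp-5 stood at 2.94 to 21.1 CPM in WT cold (median 6.42) and 21.5 to 111 CPM in WT control (median 51.8), a log2 fold change of -2.82 ± 0.39 (adjusted p = 0.000929), and its highest cold library lay just below its lowest control library. The HAF-family gene haf-7 stood at 14 to 57.5 CPM in WT cold (median 21.3) and 6.35 to 14.4 CPM in WT control (median 8.16), a log2 fold change of 1.47 ± 0.31 (adjusted p = 0.00914), and its groups overlapped slightly. The gene haf-4, needed for a class of gut granules, had -1.26 ± 0.28 (adjusted p = 0.0116), and the P-glycoprotein gene pgp-11 had -1.20 ± 0.28 (adjusted p = 0.0145). The rise of haf-2 (0.63, adjusted p = 0.022) was lost without any one of WT cold 1, WT cold 4, WT control 4 or WT control 5 (adjusted p up to 0.0626).

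**Figure D4:**
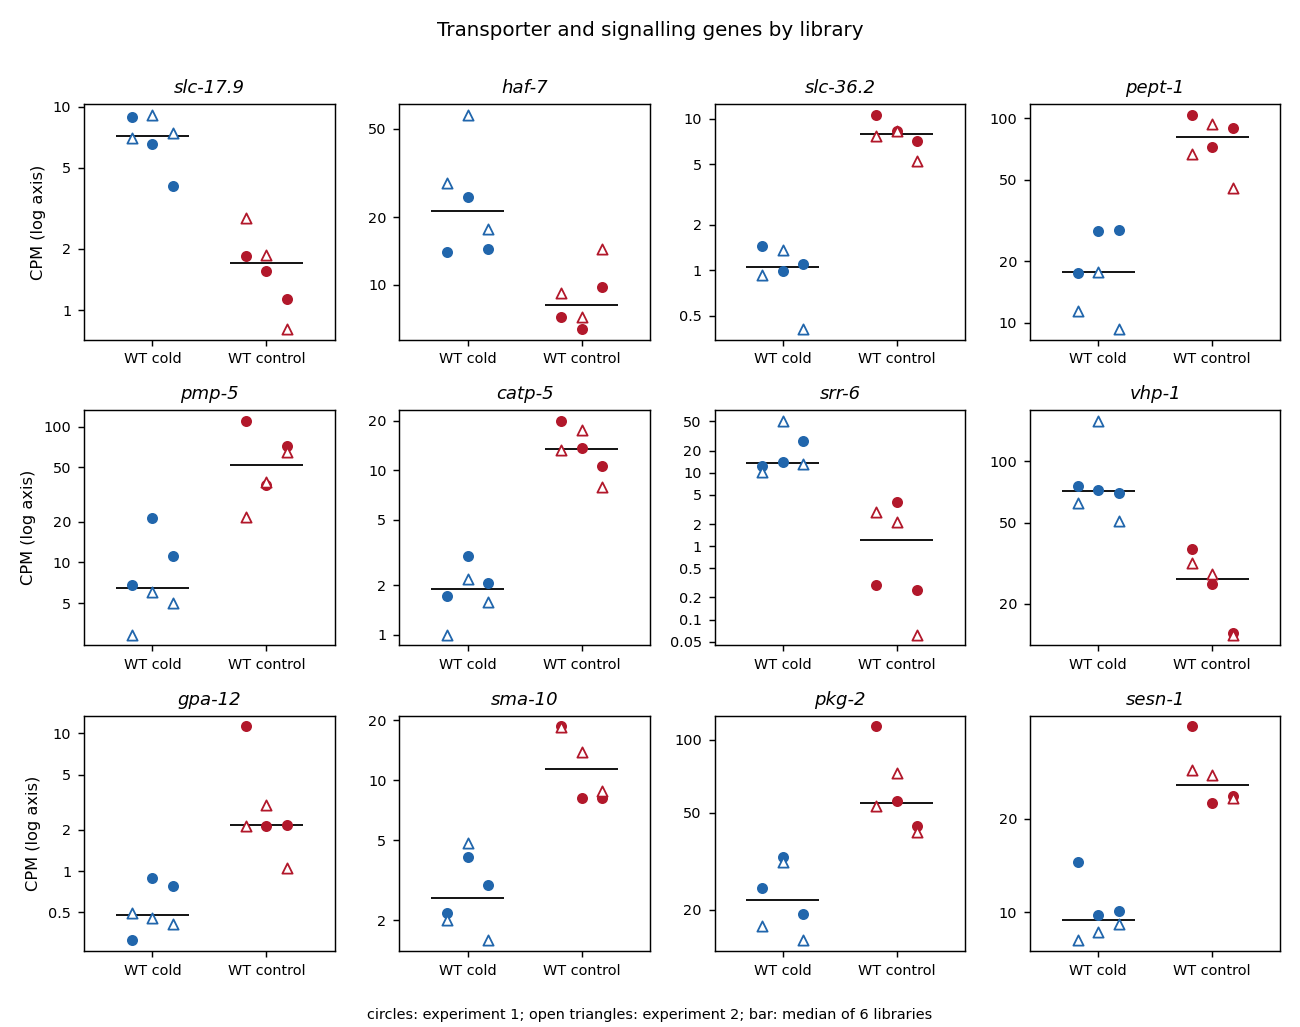
CPM (log axes) of 12 transporter and signalling genes in each WT cold and WT control library, circles for experiment 1, open triangles for experiment 2 and bars for medians. The cold libraries lie higher for slc-17.9, haf-7, srr-6 and vhp-1 and lower for the other 8 genes, such as slc-36.2 (0.41 to 1.45 CPM in WT cold and 5.29 to 10.6 CPM in WT control), and haf-7 alone has groups that overlap (14 to 57.5 CPM in WT cold and 6.35 to 14.4 CPM in WT control).

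The metal transporter list gave 5 falls (20%) and no rise of 25 tested, beside 10.4% falls and 2.7% rises over all tested genes. Of the 5 falls, 4 belong to the heme-responsive gene family. The intestinal heme importer gene hrg-4 stood at 0.749 to 1.59 CPM in WT cold (median 1.21) and 1.46 to 7.74 CPM in WT control (median 4.79), a log2 fold change of -2.08 ± 0.37 (adjusted p = 0.00378), with overlap. The gene hrg-7 stood at 4.16 to 33.4 CPM in WT cold (median 8.54) and 33.8 to 97.9 CPM in WT control (median 77.4), a log2 fold change of -2.40 ± 0.51 (adjusted p = 0.00937), and hrg-10 had -1.23 ± 0.22 (adjusted p = 0.00409). HRG-7 is not a transporter but a secreted protease-like signal of heme status from the intestine. The share of falls in this list is therefore not one of transporters alone. The heme carrier gene hrg-3 had -1.56 (adjusted p = 0.0457), a call lost in 5 of the 6 fits without 1 library that tested it (adjusted p up to 0.11), those without WT cold 4, WT cold 5, WT cold 6, WT control 4 and WT control 5.

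For pumps that acidify or energise membranes the share of falls was close to that of all tested genes (10.4%). The V-ATPase subunits gave 3 falls of 21 tested (14.3%), with 18 below 0 and a median of -0.32. The subunit gene vha-6, specific to the gut lumen membrane, stood at 46.3 to 122 CPM in WT cold (median 75.2) and 138 to 429.7 CPM in WT control (median 263), a log2 fold change of -1.64 ± 0.30 (adjusted p = 0.00469), and vha-3 had -1.35 ± 0.29 (adjusted p = 0.00967). The fall of vha-12 (-0.65, adjusted p = 0.0223) was lost without WT control 5 (adjusted p up to 0.0728). Ion pumps and exchangers gave 6 falls (16.2%) and 2 rises of 37. The gene catp-5, a P-type ATPase known for polyamine uptake in the gut, stood at 0.999 to 2.99 CPM in WT cold (median 1.9) and 7.9 to 20.1 CPM in WT control (median 13.5), a log2 fold change of -2.86 ± 0.30 (adjusted p = 0.000344). Neither vha-6 nor catp-5 had overlapping groups. Its relative catp-7 had -1.25 ± 0.28 (adjusted p = 0.0127). The call of catp-3, a sodium pump-like gene (-2.34, adjusted p = 0.0225), was lost without any one of WT cold 1, WT cold 2, WT cold 3 or WT cold 4 (adjusted p up to 0.0648). The rises of catp-6 (0.62, adjusted p = 0.0353) and catp-8 (0.43, adjusted p = 0.0467) were lost in every fit that left out 1 library except those without WT cold 5, WT control 3 or WT control 6 (adjusted p up to 0.0938 for catp-6 and adjusted p up to 0.114 for catp-8). Mitochondrial carriers gave 1 fall of 17, misc-1 (-0.33, adjusted p = 0.0469), lost in every fit that left out 1 library except those without WT control 3 or WT control 6 (adjusted p up to 0.166). It was also lost with RLE factors, no filter, DESeq2 and no experiment term, and DESeq2 called 2 rises and no fall in this list.

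Channel genes gave few calls by edgeR, to be read beside 2.7% rises and 10.4% falls over all tested genes. Potassium, chloride and sodium channels gave 4 falls and 1 rise of 77 tested, calcium, TRP and cyclic nucleotide channels 1 fall and 2 rises of 21, and ligand-gated channels 4 falls and 1 rise of 47. Most lay below 0, at 56 of 77 (median -0.45), 14 of 21 (median -0.25) and 40 of 47 (median -0.56) in these lists. DESeq2 called 11 falls and 1 rise, 2 falls and 2 rises, and 5 falls and 1 rise in the same order. The rises of del-7 and glr-2 were at low levels. The degenerin-type sodium channel gene del-7 stood at 0.996 to 1.84 CPM in WT cold (median 1.31) and 0.171 to 0.435 CPM in WT control (median 0.28), a log2 fold change of 2.25 ± 0.32 (adjusted p = 0.00108). The AMPA-type glutamate receptor gene glr-2 stood at 2 to 6.53 CPM in WT cold (median 2.33) and 0.249 to 1.1 CPM in WT control (median 0.485), a log2 fold change of 2.44 ± 0.39 (adjusted p = 0.00219). Neither gene had overlapping groups. Of 15 neuron markers, beside which neuronal genes are to be read, 1 rose, 1 fell and 11 were below 0, with a median of -0.42. Called in every alternative, among the falls named here, were the KCNQ-type potassium channel gene kqt-3 (-1.83 ± 0.31, adjusted p = 0.00317) and flr-1, a degenerin-type gene of the gut defecation rhythm (-2.08 ± 0.39, adjusted p = 0.00474).

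The other named channel calls did not hold in every fit. The cyclic nucleotide-gated channel gene cng-1 (1.50, adjusted p = 0.0306) lost its call without any one of WT cold 2, WT cold 6, WT control 1, WT control 2, WT control 4 or WT control 5 (adjusted p up to 0.0689). The Piezo mechanosensory channel gene pezo-1 (0.56, adjusted p = 0.0487) lost it in every fit that left out 1 library except those without WT cold 3, WT cold 5, WT control 1 or WT control 6 (adjusted p up to 0.114), and trpa-2 (-1.35, adjusted p = 0.0348) in every fit that left out 1 library except those without WT cold 2, WT cold 5, WT control 3 or WT control 6 (adjusted p up to 0.0964). The glutamate-gated chloride channel gene glc-2 (-2.22, adjusted p = 0.02) lost it without any one of WT cold 1, WT cold 3, WT cold 4 or WT control 5 (adjusted p up to 0.059). For lgc-22 (-1.12, adjusted p = 0.0225) it was lost without any one of WT cold 1, WT cold 3, WT cold 4, WT cold 6, WT control 4 or WT control 5 (adjusted p up to 0.0746). For lgc-54 (-1.32, adjusted p = 0.0236) it was lost without any one of WT cold 1, WT cold 2, WT cold 3, WT cold 4, WT cold 6, WT control 4 or WT control 5 (adjusted p up to 0.0692), and for the degenerin-type gene egas-3 (-2.02, adjusted p = 0.0217), tested in 10 of the 12 such fits, without any one of WT cold 1, WT cold 3, WT cold 4, WT cold 6 or WT control 4 (adjusted p up to 0.0625).

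Signalling genes gave the fewest falls of the 3 classes. Of 1808 listed, mostly chemoreceptor genes too low to test, 333 were tested. Of these 11 rose (3.3%) and 25 fell (7.51%), against 2.7% and 10.4% over all tested genes, with a median of -0.15. Falls numbered 15, 14 and 56 without WT cold 1, 3 and 5, and 12, 14 and 47 without WT control 4, 5 and 6. Over all genes the falls in these fits numbered 704, 807 and 1803, and 711, 673 and 1824. Rises numbered 19 without WT control 3 and 24 without WT control 6, beside 630 and 808 over all genes. Without WT cold 5 and WT control 6 together, 21.1% of tested signalling genes fell, beside 19.6% of all tested genes.

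Among receptors at the cell surface, only 23 of 1301 chemoreceptor genes passed the filter on low counts, and 1 rose and 1 fell. The risen gene srr-6 stood at 10.4 to 51.4 CPM in WT cold (median 13.7) and 0.0622 to 4.04 CPM in WT control (median 1.21), a log2 fold change of 3.71 ± 0.82 (adjusted p = 0.0119), with 3.62 in experiment 1 and 3.89 in experiment 2. The cold libraries were all above the control libraries. The fall of srv-1 (-1.09, adjusted p = 0.0411) was lost in every fit that left out 1 library except those without WT cold 5, WT control 3 or WT control 6 (adjusted p up to 0.106). Neuropeptide and transmitter receptors gave 2 falls (3.51%) and 1 rise (1.75%) of 57 tested, beside 10.4% and 2.7% of all tested genes. The falls were npr-30 (-3.38 ± 0.56, adjusted p = 0.00247), with 15 reads over the WT cold libraries and 138 over the WT control libraries, and npr-13 (-1.92 ± 0.33, adjusted p = 0.00306). The rise of trhr-1, the receptor of thyrotropin-releasing hormone-like peptides (1.32, adjusted p = 0.0321), was lost without any one of WT cold 1, WT cold 3, WT cold 4 or WT control 5 (adjusted p up to 0.0765).

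G proteins relay the signals of such receptors. Of 30 tested genes of G proteins or their regulators, 3 fell (10%) and 1 rose (3.33%), close to the 10.4% and 2.7% of all tested genes. The G12-type alpha subunit gene gpa-12 stood at 0.314 to 0.885 CPM in WT cold (median 0.478) and 1.06 to 11.3 CPM in WT control (median 2.15), a log2 fold change of -2.60 ± 0.51 (adjusted p = 0.00626), and WT control 1 was the highest library by far. The alpha subunit gene gpa-1 stood at 2.81 to 5.72 CPM in WT cold (median 3.51) and 0.894 to 3.51 CPM in WT control (median 1.15), a log2 fold change of 1.26 ± 0.31 (adjusted p = 0.019). The groups overlapped for gpa-1 and not for gpa-12, and the call of gpa-1 was lost with no experiment term (adjusted p = 0.0527). The fall of gsa-1, the Gs alpha subunit (-1.28, adjusted p = 0.0188), was lost without any one of WT cold 4, WT cold 6, WT control 4 or WT control 5 (adjusted p up to 0.058). The fall of rgs-4 (-0.99, adjusted p = 0.0334) was lost in every fit that left out 1 library except those without WT cold 5, WT control 3 or WT control 6 (adjusted p up to 0.0892).

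Cyclic nucleotide signalling gave 3 falls (15.8%) and 2 rises (10.5%) of 19 tested, beside 10.4% and 2.7% of all tested genes. The receptor guanylyl cyclase gene gcy-7, known for its expression in 1 taste neuron, was counted 130 times over the WT cold libraries and 6 times over the WT control libraries. It stood at 0.667 to 1.51 CPM in WT cold (median 0.834) and 0 to 0.171 CPM in WT control (median 0.0311), a fitted log2 fold change of 4.15 ± 0.63 (adjusted p = 0.00159), called in the 10 of 12 fits without 1 library that tested it. Its exons share bases with pho-6 on the opposite strand. The cGMP-dependent kinase gene pkg-2 stood at 15 to 33 CPM in WT cold (median 21.9) and 41.6 to 113 CPM in WT control (median 54.7), a log2 fold change of -1.44 ± 0.27 (adjusted p = 0.00519), and the receptor guanylyl cyclase gene gcy-12 had -0.97 ± 0.20 (adjusted p = 0.00913). Both genes had no overlap between groups. The rise of the phosphodiesterase gene pde-2 (0.55, adjusted p = 0.028) was lost in every fit that left out 1 library except those without WT cold 3, WT cold 5, WT control 3 or WT control 6 (adjusted p up to 0.0734). The fall of kin-2, the regulatory subunit of protein kinase A (-1.06, adjusted p = 0.0234), was lost without any one of WT cold 1, WT cold 3, WT cold 4, WT cold 6, WT control 1, WT control 4 or WT control 5 (adjusted p up to 0.0697).

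Insulin, TOR and AMPK pathway genes gave 1 rise (3.12%) and 2 falls (6.25%) of 32, all tested, beside 2.7% and 10.4% of all tested genes. Their median log2 fold change was 0.28, and 24 of the 32 were above 0. DESeq2 called 8 rises and 3 falls in this list. The insulin receptor gene daf-2 stood at 92.8 to 213 CPM in WT cold (median 167) and 60.1 to 170 CPM in WT control (median 121) and was not called (0.43 ± 0.21, adjusted p = 0.171). The AMPK catalytic subunit gene aak-2 had -0.32 ± 0.19 (adjusted p = 0.256). The sestrin gene sesn-1, a nutrient-sensing inhibitor of TOR in other animals, stood at 8.12 to 14.5 CPM in WT cold (median 9.46) and 22.4 to 39.7 CPM in WT control (median 25.7), a log2 fold change of -1.47 ± 0.19 (adjusted p = 0.000735), with no overlap. The rise of the S6 kinase gene rsks-1 (0.44, adjusted p = 0.0276) was lost without any one of WT cold 1, WT cold 4, WT cold 6, WT control 4 or WT control 5 (adjusted p up to 0.0756). The fall of the AMPK beta subunit gene aakb-1 (-0.99, adjusted p = 0.04) was lost in every fit that left out 1 library except those without WT cold 5, WT control 3 or WT control 6 (adjusted p up to 0.121).

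MAP kinase and Ras pathway genes gave 2 rises (5.88%) and 3 falls (8.82%) of 34, beside 2.7% and 10.4% of all tested genes. The phosphatase gene vhp-1, which dampens JNK and p38 signalling in worms, stood at 50.8 to 158 CPM in WT cold (median 71.3) and 14.1 to 37.3 CPM in WT control (median 26.5), a log2 fold change of 1.69 ± 0.32 (adjusted p = 0.00515), with every cold library above every control library. The SARM-type adaptor gene tir-1, upstream of p38, had 1.30 (adjusted p = 0.0251), a call lost without WT cold 2 (adjusted p up to 0.0539). The p38 gene pmk-1 was not called (0.19 ± 0.17, adjusted p = 0.437). The MAP kinase kinase gene sek-6 stood at 0.187 to 0.729 CPM in WT cold (median 0.36) and 0.933 to 2.19 CPM in WT control (median 1.69), a log2 fold change of -2.02 ± 0.35 (adjusted p = 0.00359), with no overlap. The falls of mpk-2 (-1.64, adjusted p = 0.031) and sek-4 (-1.42, adjusted p = 0.0319) were both lost without any one of WT cold 1, WT cold 3, WT cold 4, WT cold 6, WT control 1, WT control 4 or WT control 5 (adjusted p up to 0.0835 for mpk-2 and adjusted p up to 0.0897 for sek-4).

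In the TGF-beta pathway, which sets body size and dauer entry, 3 of 20 tested genes fell (15%) and 1 rose (5%), at a median of -0.34. The shares over all tested genes were 10.4% and 2.7%. The ligand gene tig-3 (-1.62, adjusted p = 0.0191) lost its call without either WT control 4 or WT control 5 (adjusted p up to 0.0566). Among membrane regulators of BMP signalling, sma-10 stood at 1.58 to 4.83 CPM in WT cold (median 2.57) and 8.11 to 18.6 CPM in WT control (median 11.3), a log2 fold change of -2.10 ± 0.36 (adjusted p = 0.00308). The RGM-type co-receptor gene drag-1 had -1.42 ± 0.30 (adjusted p = 0.00967). The Smad gene daf-8 of the dauer branch moved the other way, at 12.2 to 27.3 CPM in WT cold (median 17.8) and 8.89 to 11.7 CPM in WT control (median 10.6), a log2 fold change of 0.79 ± 0.20 (adjusted p = 0.0201). None of these 3 genes had overlapping groups.

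Hedgehog-related and Patched-related genes, many of them made in the epidermis, gave 6 falls and 1 rise of 38 tested, at a median of -0.56. The shares were 15.8% and 2.63%, beside 10.4% and 2.7% of all tested genes. The Patched-related gene ptr-8 stood at 22.2 to 48.4 CPM in WT cold (median 30.5) and 6.47 to 24.3 CPM in WT control (median 10.6), a log2 fold change of 1.43 ± 0.27 (adjusted p = 0.00552), with slight overlap. Its relative ptr-24 had -1.02 ± 0.20 (adjusted p = 0.00726). The fall of ptr-1 (-0.91, adjusted p = 0.0312) was lost without any one of WT cold 1, WT cold 2, WT cold 4, WT cold 6, WT control 2, WT control 4 or WT control 5 (adjusted p up to 0.0922). The fall of the Hedgehog-like gene wrt-1 (-2.40, adjusted p = 0.0178) was lost without either WT cold 3 or WT control 4 (adjusted p up to 0.058). Of 10 tested hypodermis markers 5 fell, none rose and all 10 were below 0, with a median of -1.38. The summed level of all 15 listed hypodermis markers spanned 214 to 1013 CPM in WT cold and 199 to 3080 CPM in WT control. Their part in these falls was not tested. Calcium and lipid signalling kinases gave 1 fall of 26, plc-2 (-1.41, adjusted p = 0.0285), lost in every fit that left out 1 library except those without WT cold 2, WT cold 5, WT control 3 or WT control 6 (adjusted p up to 0.0899). The Wnt pathway (26 tested) and the Notch pathway (16 tested) gave no call, with medians of 0.10 and 0.20. At an unadjusted p under 0.05, 3 Wnt genes lay above 0 and 3 below, and 1 Notch gene lay above 0 and 1 below. DESeq2 called 2 rises and 2 falls in the Wnt list and none in the Notch list.

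Genes known from work on temperature sensing and cold tolerance were called by edgeR in 2 of 16 tested cases, beside 13.1% of all tested genes. These were the rise of zip-10 and the fall of cpr-1. DESeq2 called 2 rises and 4 falls among the 16, and 999 rises and 1612 falls over all genes. The cathepsin B-like protease gene cpr-1 stood at 162 to 1346 CPM in WT cold (median 249) and 414 to 2445 CPM in WT control (median 1129), a log2 fold change of -1.74 ± 0.51 (adjusted p = 0.0407). Its groups overlapped, and its call was lost in every fit that left out 1 library except those without WT cold 5, WT control 3 or WT control 6 (adjusted p up to 0.101). The zip-10 repressor gene isy-1 stood at 106 to 184 CPM in WT cold (median 116) and 102 to 209 CPM in WT control (median 146) and was not called (-0.24 ± 0.18, adjusted p = 0.364). The membrane fluidity sensor genes paqr-2 (0.02 ± 0.12, adjusted p = 0.938) and iglr-2 (0.32 ± 0.13, adjusted p = 0.113) were not called either. The TRP channel gene trpa-1, which acts in the lifespan response to low temperature, stood at 1.33 to 2.03 CPM in WT cold (median 1.67) and 1.51 to 7.06 CPM in WT control (median 3.17) and missed the threshold (-1.03 ± 0.33, adjusted p = 0.0584), which it passed without WT control 2 and with DESeq2. The iglr-2 gene passed it, as higher in WT cold, without WT control 6. The cold receptor gene glr-3, with 2 reads over the WT cold and 5 over the WT control libraries, was too low to test. The sensory channel genes tax-2 (7 reads in WT cold and 10 in WT control) and tax-4 (18 reads in WT cold and 16 in WT control) were too low as well.

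The other marker lists held few calls, to be read beside 2.7% rises and 10.4% falls over all tested genes. Of 18 germline and oocyte markers 1 rose, none fell and all 18 were above 0, with a median of 0.30, at 14450 to 25120 summed CPM in WT cold and 5376 to 22320 summed CPM in WT control. Muscle markers gave no call among 15 with edgeR or DESeq2 and none at an unadjusted p under 0.05, with a median of -0.39. Sperm markers gave none among 26 with either tool and 1 fall at an unadjusted p under 0.05, although all 26 were below 0, with a median of -1.52. Early embryo markers gave 1 fall among 8. Levels relative to the whole library therefore leaned up in germline genes and down in sperm, intestine and hypodermis genes. Neuron and muscle markers leaned down less, with medians of -0.42 and -0.39. The part of these shifts in the class counts was not tested.

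By position, falls were unevenly spread. On chromosomes V and X, 15.7% and 15.6% of tested genes fell, against 11.2% on II, 9.21% on IV, 5.82% on III and 5.66% on I. Rises were most frequent on V (3.7%) and least on X (1.51%). By gene class, 108 classes had at least 10 tested genes, and 81 of them held no rise, where 2.7% of all tested genes rose. In 42 of the classes the share of falls was above the 10.4% of all tested genes. The classes with the highest shares of falls were nspg (8 of 11), math (10 of 16), the aspartyl proteases asp (6 of 11), the aldehyde dehydrogenases alh (5 of 12) and the carboxylesterases cest (11 of 27). C-type lectins clec (26 of 64), glucuronosyltransferases ugt (19 of 49) and cytochromes P450 cyp (17 of 44) followed closely, each with no rise.

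Some of the rises of at least 2-fold lay next to each other. Of 131 placed genes that rose at least 2-fold, 28 (21.4%) had a neighbouring tested gene that did so too and shared no exon base with it, against 1.83% of the other tested genes. The same share was 29.3% for genes that fell at least 2-fold, against 14.1% of the others. The longest run was on chromosome V between positions 4025047 and 4043601 of WBcel235, where 5 consecutive tested genes rose, K09D9.1, C49G7.7, C49G7.12, C49G7.10 and the infection response gene irg-2. Another run, on chromosome V between 5077854 and 5086969, held Y58A7A.3, Y58A7A.4 and Y58A7A.5. One more run, on chromosome III between 1279627 and 1288523, held 4 genes, among them the F-box genes fbxa-37 and fbxa-50. These runs were picked out after their values were seen, neighbours that are close copies can share reads, and no test was made of the clustering.

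The 2 experiments share no library, so each is a separate measurement of the response. Over 11226 genes tested in both, 86.2% had the same sign, with r = 0.826 and rho = 0.824 across genes, which are not independent replicates. Correlations across genes were r = 0.891 for 362 transcription factors, 0.782 for 360 transporters and 0.819 for 308 signalling genes. The agreement followed the level, with r = 0.784 for genes under 3 CPM and 0.897 at 100 CPM or more. Without WT cold 2 and WT control 1, r was 0.838 for all genes, 0.902 for transcription factors, 0.839 for transporters and 0.815 for signalling genes.

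**Figure D5:**
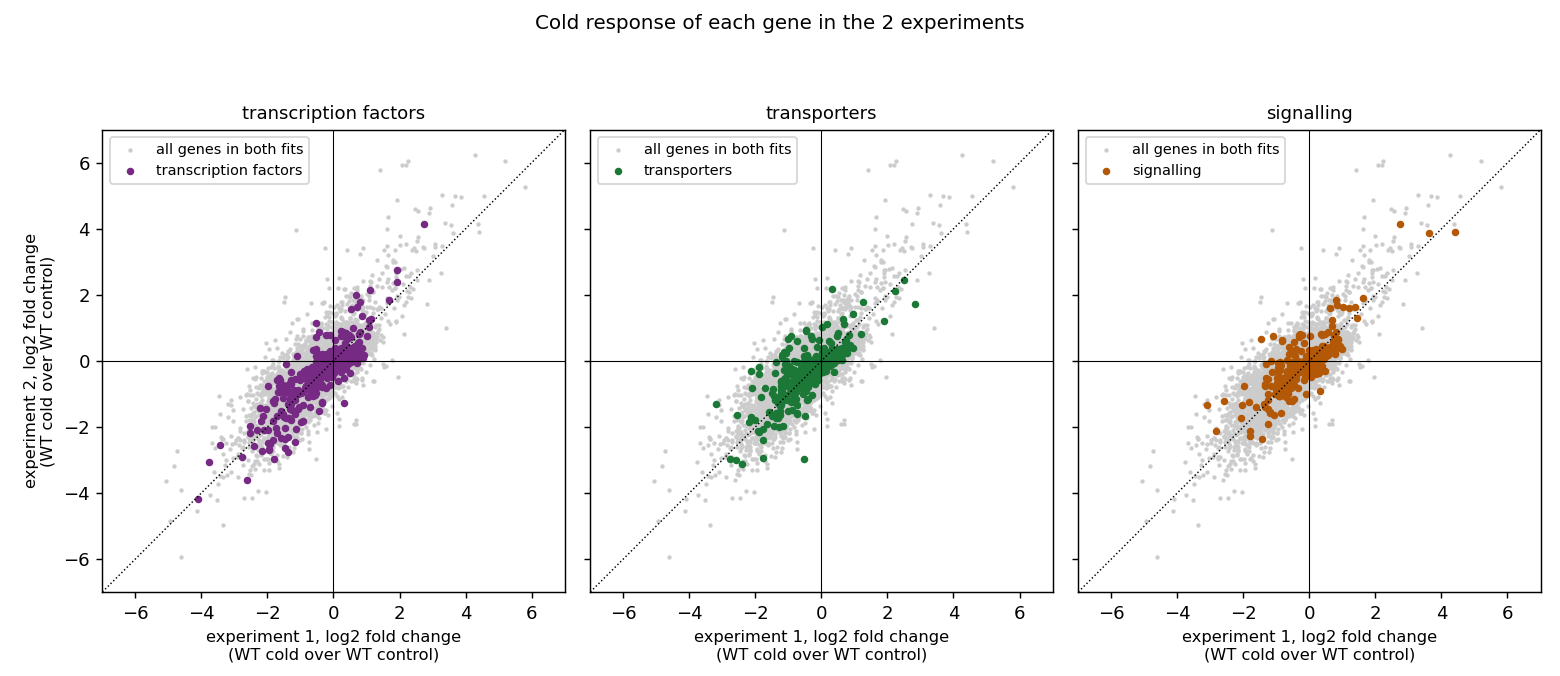
Log2 fold change of WT cold over WT control in experiment 1 (x axis) and experiment 2 (y axis) for each gene tested in both, all genes in grey and the named class in colour, with equal values on the dotted line. Most points lie to the lower left or upper right of the origin (86.2% of all genes have the same sign), and nhr-247, which has no control read, is left out.

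Genes picked in 1 experiment were read in the other. The 100 rises with the smallest p in experiment 1, with a median log2 fold change of 2.14 there, had a median of 2.52 in experiment 2, and all 100 had the same direction. The 100 falls with the smallest p in experiment 1, with a median of -2.33, had a median of -2.33 in experiment 2, again all in the same direction. In the other direction 99 of 100 rises and 100 of 100 falls of experiment 2 kept their direction in experiment 1, with R74.2 (-0.12 in experiment 1 and 2.20 in experiment 2) the exception. The medians of rises picked in experiment 2 were 2.56 there and 1.64 in experiment 1. For the 20 transcription factors with the smallest p in each direction and experiment, all 20 kept their direction in each of the 4 readings. Among transporters 1 of the 4 readings had 19 of 20, the exception being snf-10, and among signalling genes 1 had 19 of 20, the exception being kgb-2.

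Each experiment alone had few calls by edgeR and many by DESeq2. By edgeR at an adjusted p below 0.05, 3 genes of 12538 tested (0.0239%) were called in experiment 1, F19B10.13, Y58A7A.4 and kreg-1, and 48 of 11304 (0.425%) in experiment 2. DESeq2 called 656 in experiment 1 and 675 in experiment 2. Of the listed genes, zip-10, zip-3, nhr-68, nhr-114, gcy-12 and sesn-1 were among the 48. In experiment 1 the count was 153 without WT control 1 and 0 without any one of the other 5 libraries. In experiment 2 it was 217 without WT cold 5, 61 without WT control 6 and 0 without any one of the other 4. Of 11766 tested genes, 356 (3.03%) rose with no overlap of libraries within either experiment, 758 (6.44%) fell so, and 2 (0.017%) were apart in opposite directions. Of the 1545 called genes, 911 were apart in both experiments in this way and 667 over all 12 libraries.

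The difference between the experiments was tested as an interaction. No gene of 11766 passed an adjusted p of 0.05 with edgeR, 71 had an unadjusted p under 0.05, and DESeq2 called 1, dgat-2. The unadjusted count was 54 to 486 when 1 library was left out, with 486 without WT control 3 and 139 without WT cold 6, and it was 177 with no filter. All 1462 called genes that were tested in both experiments had the same sign in both, although the pooled choice of these genes partly builds this in. Among listed genes 7 of 1084 had an unadjusted interaction p under 0.05. The 5 smallest belonged to hrg-3 (-0.52 in experiment 1 and -2.96 in experiment 2), irk-2 (-0.73 in experiment 1 and 0.60 in experiment 2), wrt-3 (-0.82 in experiment 1 and 0.63 in experiment 2), and the homeobox genes ceh-13 (-1.64 in experiment 1) and ceh-48 (-2.20 in experiment 1), both too low to fit in experiment 2. Over all genes they belonged to R74.2, dgat-2 (-1.49 in experiment 1 and 1.80 in experiment 2), C08E8.3 (2.08 in experiment 1 and 5.94 in experiment 2), Y82E9BL.18 (-0.20 in experiment 1 and 2.49 in experiment 2) and hrg-3. C08E8.3 was called over both experiments (3.42 ± 0.70, adjusted p = 0.00794), at 1.7 to 8.12 CPM in WT cold (median 2.57) and 0.0622 to 0.941 CPM in WT control (median 0.13).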

How the data were processed

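Poly(A)-selected RNA of whole worms was sequenced (NEBNext Ultra II libraries, Trizol extraction, per the labels' protocols). The authors deposited unnormalised counts of 46748 gene identifiers, made with bcl2fastq, STAR 2.5.0a and HTSeq on WBcel235, per the submitters' processing notes. Annotation release and strand setting were not given in the sources used here. Values were checked to be whole numbers, and no 2 libraries of a group were near-identical (smallest chi-square per degree of freedom 12.2). Symbols and positions are those of the Ensembl annotation of WBcel235.

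The 12 WT libraries were fitted with edgeR 4.0.16 in R 4.3.3 (quasi-likelihood, TMM factors, filterByExpr at its default minima of 10 per library and 15 in total, the experiment as a term). Log2 fold changes are WT cold over WT control, ± is the standard error, and calls are at a Benjamini-Hochberg adjusted p below 0.05 over all 11766 tested genes. Each experiment was also fitted alone, and their difference was an interaction term. The p-values measure the spread between these libraries. The procedure was tested on simulated data. Depth was 10449794 to 28605468 counts per library, so counting error adds clearly to the spread near 1 CPM.

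The 31 lists and 7 marker lists were made by gene symbol or gene class, and members and lists were chosen with earlier results of these data known. Named genes were up to 3 called genes with the smallest p per list and direction, the 10 called genes with the largest change in each direction (higher group mean 10 CPM or more, groups apart within each experiment), 25 genes always given, and the 5 smallest interaction p-values in the lists and over all genes. Replicate numbers were not taken to pair WT cold with WT control. Same-numbered deviations from the group means correlated above 0.1 in only 2 of 6 pairs, numbers 5 (0.713) and 6 (0.71) of experiment 2. The others lay at -0.698 to 0.0233. A pairing in experiment 2 is therefore not settled. The alternatives tried were DESeq2 1.42.0, RLE factors, upper-quartile factors, no filter on low counts, a replicate block, no experiment term and each library left out. Fits without WT cold 2 and WT control 1, and without WT cold 5 and WT control 6, were added after seeing the data. No set test was made, and no sequence is printed.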

Additional observations from a re-analysis of the deposited data

Results flagged for a closer look

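In 31 groups of 6 libraries, of 282 examined, the highest or lowest library lay far from the others by Dixon's 95% limit. That limit flags about 1 in 20 groups of independent, normally spread values. These groups share the same 12 libraries, so the 31 flags are not to be set against that rate. WT cold 5 was the high library for zip-10 (75.7 CPM), zip-5 (32.8), nhr-247 (5.65), nhr-6 (18.4), lgc-22 (6.84), vhp-1 (158), F19B10.13 (61.5), kreg-1 (37.3), F33H12.7 (26.1), T19D12.5 (29.8) and pha-4 (9.94). WT control 1 was the high library for zip-10 (8.77 CPM), zip-3 (98.6), atf-4 (81.6), ztf-26 (8.09), ent-7 (20.5), catp-3 (60.1), mpk-2 (9.33), F22F7.8 (43.1), anmt-3 (42.7), ugt-63 (124) and sams-1 (899). WT control 1 was the low library for paqr-2 (43.3 CPM), hsf-1 (44.5) and skn-1 (88.3).

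Other libraries were flagged for single genes. WT cold 2 was high for cng-1 (9.99 CPM) and glr-2 (6.53), WT cold 3 was low for pde-2 (159.7), and WT cold 6 was low for slc-36.2 (0.41) and tig-3 (0.0586). WT control 2 was low for hrg-7 (33.8). WT cold 5 had the fewest counts of the 12 libraries, and WT control 1 had the most sperm RNA. What part either plays in these values was not tested.

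For dgat-2 the cold libraries lay below the control libraries in experiment 1 and above them in experiment 2. The log2 fold changes were -1.49 in experiment 1 and 1.80 in experiment 2, a difference of 3.39 by edgeR's interaction (unadjusted p = 0.000587), which failed the adjustment over all genes and was called by DESeq2.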

How the results depend on the processing

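Counts of calls moved by over 1.5 times under some alternatives, and the cause was not tested beyond the libraries named. Rises over all genes (318) were 210 with upper-quartile factors, 999 with DESeq2, 163 to 808 without 1 library and 1007 without WT cold 5 and WT control 6. Falls (1227) were 673 to 1824 without 1 library and 2388 without those 2. For transcription factors, rises (11) were 23 with DESeq2, and falls (71) were 45 to 101 without 1 library. For transporters, rises (10) were 17 with DESeq2 and 4 to 17 without 1 library, and falls (51) were 23 to 76. For signalling genes, rises (11) were 25 without the filter, 28 with DESeq2 and 8 to 24 without 1 library, and falls (25) were 12 to 56. Without WT cold 5 and WT control 6, 8.26% of all tested genes rose and 19.6% fell (2.7% and 10.4% with all 12). The shares were 5.34% and 31.3% of transcription factors (2.89% and 18.7%), 4.43% and 25.6% of transporters (2.59% and 13.2%), and 7.76% and 21.1% of signalling genes (3.3% and 7.51%). The interaction gave 1 call with DESeq2 and 0 in the other alternatives run. Experiment 1 alone (3) gave 10 without the filter, 656 with DESeq2 and 0 to 153 without 1 library. Experiment 2 alone (48) gave 181, 675 and 0 to 217.

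The labels do not say whether same-numbered WT cold and WT control libraries are pairs. With a replicate block in place of the experiment, 329 genes rose and 1173 fell, 0 were called in experiment 1 alone and 1573 in experiment 2 alone. The block gave calls to elt-2 and hif-1. Of 12 libraries, 4 correlated best with the library of their own number.

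Of 118 named called genes, 42 lost the call in some fit without 1 library, 73 were tested and called in all 12 such fits, and 70 in all 20 alternatives. The direction of a called gene was reversed in none of them. Of 23 named genes that were not called, 7 were called in some alternative.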
